A study of Homo sapiens with 18 samples.

Results

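The genes described here are 10 feedback inhibitors of MAP kinase signalling, chiefly of the kinase cascade that runs between RAS and ERK. They are the dual specificity phosphatases DUSP1, DUSP4, DUSP5, DUSP6 and DUSP10, the Sprouty genes SPRY1, SPRY2 and SPRY4, and the Sprouty-related genes SPRED1 and SPRED2. DUSP10 acts mainly on p38 and JNK, relatives of ERK. All 10 were taken by gene symbol, out of 21187 genes with a symbol in the PC3 and 22RV1 tables. The set was chosen with earlier results of these data known. RNA was sequenced 24 h after treatment from 2 established human prostate cancer lines, each group having 3 libraries named A, B and C. PC3 cells, a metastatic castrate-resistant line, received 10 µM canagliflozin (CANA) or served as control. 22RV1 cells, a castrate-resistant line, received CANA together with 5 Gy of radiation (CANA + RT), 5 Gy alone (RT), 10 µM CANA alone, or neither (control). Canagliflozin is a diabetes drug that blocks the glucose transporter SGLT2, and the comparisons address how it alters gene expression alone and in irradiated cells. Per the labels, control cells received the solvent DMSO. The methods do not say for the sequencing whether libraries A, B and C came from separate cultures, so p-values measure the spread between these samples only.

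ERK is switched on by phosphorylation, and active ERK drives transcription of its own inhibitors. MAP kinase phosphatases of the DUSP family take the phosphates off ERK and its relatives p38 and JNK, while Sprouty proteins block signalling between growth factor receptors and RAS. SPRED proteins bring the RAS inhibitor neurofibromin to the cell membrane. Because several of these genes are transcribed soon after ERK is activated, their RNA is widely read as a measure of ERK output, but some of them are also controlled by other inputs, among them cAMP, stress kinases and p53.

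Promoter sequence was read from RefSeq (GRCh38.p14) for 8 of the 10 genes, as the 250 bases before the annotated start nearest to the gene's 5′ end; DUSP4 and DUSP5 are named only. The 3 stretches printed belong to DUSP1, which fell with radiation, to SPRY2, which had the largest rise with radiation among the 10 genes, and to DUSP6, which was higher in both tests in irradiated cells. Capitals mark any match on either strand to TGACG, the core of the cAMP response element, to CCGGAA, the core bound by ETS factors through which ERK acts, or to the AP-1 site TGANTCA. TGACGTCA, the full cAMP response element, contains TGACG on both strands. All 3 genes lie on the minus strand, and the windows are chr5:172771196-172771445 for DUSP1, chr13:80341127-80341376 for SPRY2 and chr12:89352502-89352751 for DUSP6.
DUSP1: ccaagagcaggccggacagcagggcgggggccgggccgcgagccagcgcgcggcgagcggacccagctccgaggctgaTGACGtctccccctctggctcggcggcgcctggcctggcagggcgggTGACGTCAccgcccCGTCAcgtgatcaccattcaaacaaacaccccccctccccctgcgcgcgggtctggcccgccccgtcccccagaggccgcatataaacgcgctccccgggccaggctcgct
SPRY2: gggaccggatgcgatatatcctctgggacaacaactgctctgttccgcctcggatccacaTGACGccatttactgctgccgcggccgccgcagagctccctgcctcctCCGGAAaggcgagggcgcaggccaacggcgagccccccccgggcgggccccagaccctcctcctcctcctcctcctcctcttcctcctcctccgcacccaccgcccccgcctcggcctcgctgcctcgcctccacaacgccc
DUSP6: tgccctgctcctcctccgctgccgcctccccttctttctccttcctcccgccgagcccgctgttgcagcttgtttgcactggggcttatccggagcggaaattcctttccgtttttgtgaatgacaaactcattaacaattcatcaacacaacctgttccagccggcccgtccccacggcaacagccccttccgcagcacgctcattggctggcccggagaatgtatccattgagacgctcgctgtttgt
The DUSP1 window held 4 matches to TGACG, of which a pair forms its single full TGACGTCA. The SPRY2 window held 1 match to TGACG and 1 to CCGGAA. The DUSP6 window held no match to any of these motifs, although the shorter ETS core does occur in it. Over the 8 genes 3 windows matched TGACG (DUSP1, SPRY2 and SPRY4), against 21.2% of 35116 RefSeq promoter windows of this length. TGACGTCA was in 1 of the 8 windows, against 1.65% of all windows, CCGGAA was in 1, against 14.5%, and TGANTCA in 0, against 6.57%. For SPRY4 the RefSeq start lies 2208 bases from the GENCODE release 44 gene end. A match is a run of letters and was not tested as a binding site.

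The deposited PC3 values are reads per gene divided by a DESeq2 size factor, here called normalized reads, and they stood for 15.8 to 22.1 M reads in CANA libraries and 18.4 to 28.3 M in control libraries. The 22RV1 values are rlog values, log2 counts that DESeq2 draws towards the gene's mean, so differences are understated, the more so the fewer reads a gene has, and the depth behind them is unknown. CANA replicate B of the PC3 cells stood apart from the other 5 libraries, with a score of 50.5 on a first principal component that held 66.1% of the variance, against -17.3 to -1.58. Its differences followed transcript length, and PC3 results are therefore given with and without it. The prostate marker FOLH1 measured 11.54 to 11.80 rlog in 22RV1 cells and 57.1 to 89.8 normalized reads in PC3 cells, while PLAU, a PC3 marker, measured 57585 to 64305 normalized reads in PC3 cells and between -0.041 and -0.0017 rlog in 22RV1 cells. Other genes of the marker lists were high in both lines, HOXB13 and FOXA1 of the 22RV1 list measuring 2848 to 3401 and 1381 to 2049 normalized reads in PC3 cells, and CD44 and LGALS1 of the PC3 list 10.92 to 11.24 and 11.56 to 11.77 rlog in 22RV1 cells. Of 15 p53 target genes 15 were higher in RT than in control 22RV1 cells, against 28.4% of all genes (median log2 difference 0.96). The 6 of 8 fibroblast marker genes in the PC3 table summed to 719 to 1169 normalized reads with CANA. In control cells they summed to 1401 to 1538. Most came from COL1A1 (582 to 1391 over all PC3 libraries), with PDGFRB and DCN under 10 in every library. For the 4 genes tested the median log2 difference was -0.27, and -0.075 without CANA replicate B. In the latter fit 1 of the 4 was lower, against 9.52% of all genes. The part of the fibroblast marker difference in the results was not tested.

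The 10 genes spanned a wide range of levels, and their order differed between the lines. In PC3 control cells DUSP4, a nuclear phosphatase of ERK, JNK and p38, had the highest level per kilobase of transcript, at 2928 normalized reads per kilobase (2886 to 2955, n = 3). DUSP5, a nuclear phosphatase specific for ERK, followed at 612 (589.6 to 642), and DUSP6, its cytoplasmic counterpart, at 543 (534 to 548). SPRY1 and DUSP10 were the lowest, reaching no more than 74.9 and 71.6 in any library. SPRED2, SPRY4 and DUSP1, at 314, 304.1 and 304.0, could not be ordered, since neighbours overlapped, and nor could SPRY1 and DUSP10. All other neighbours in the PC3 order were apart in their 3 libraries.

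In 22RV1 control cells DUSP1 stood highest, at 347 per kilobase on the scale of 2 to the power of rlog (328 to 366, n = 3), and SPRED2 next at 306. DUSP5 was the lowest of the 10, at 27.6 (27.0 to 28.1), and DUSP4 and DUSP6 stood at ranks 6 and 7, at 108 and 92.7. SPRY4 and SPRY1, at 61.7 and 59.0, overlapped, and the other neighbours did not. The tables of the lines were normalized separately, so only the order within each line is compared.

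**Figure D1:**
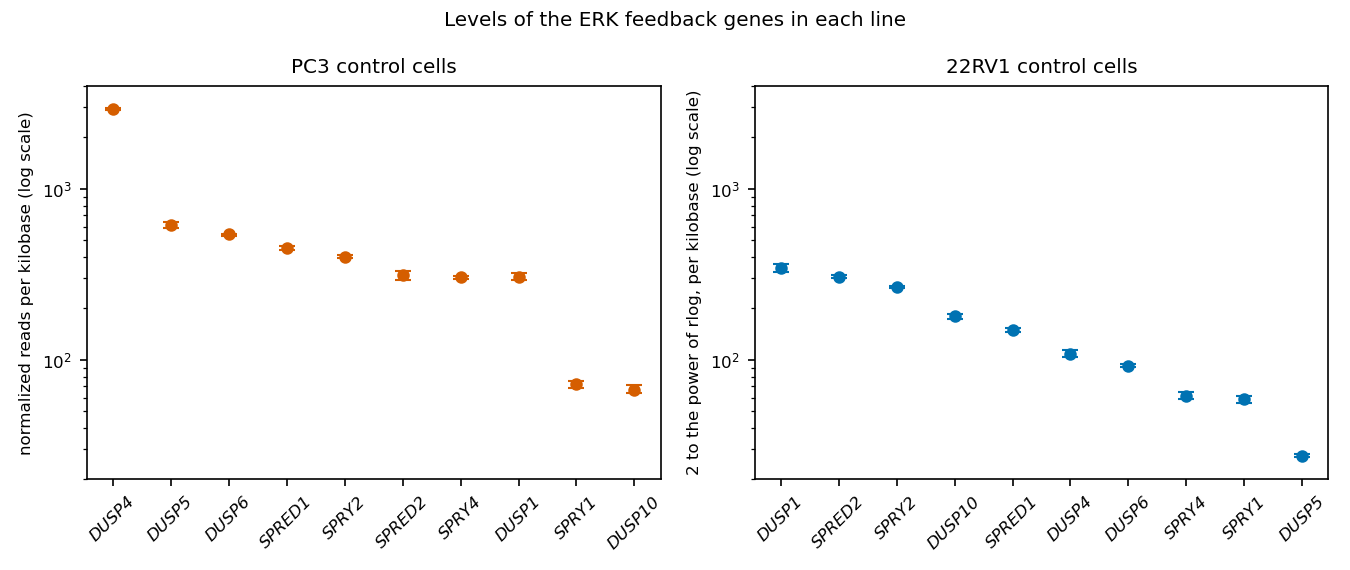
Level per kilobase of transcript in control cells of PC3 (left, normalized reads) and 22RV1 (right, 2 to the power of rlog), on log axes, genes in falling order, points showing means and bars the lowest and highest of 3 libraries. DUSP4 leads in PC3 cells at 2928 and DUSP5 is last in 22RV1 cells at 27.6.

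Canagliflozin in PC3 cells was followed by higher DUSP5 and lower SPRY4 values, while the other 8 genes differed little or mainly in CANA replicate B. DUSP5 (ENSG00000138166, chr10:110497907-110511533) had 2542 (A), 2739.8 (B) and 2474 (C) normalized reads with CANA, against 1499 (A), 1460.3 (B) and 1591 (C) in control cells. All 3 CANA libraries lay above all 3 control libraries, and replicate B did not carry the difference. Means were 2585 ± 138 with CANA and 1517 ± 67.2 in control cells (SD, n = 3 each), a ratio of 1.70. With limma on log2(value + 1) the difference was 0.77 (SE 0.083, 95% interval 0.57 to 0.96), rank 2 by p among 6537 genes with higher values, and the p adjusted over all 13450 genes by the Benjamini-Hochberg method was 0.16, above the threshold of 0.05. Without CANA replicate B DUSP5 rose by a log2 difference of 0.73 (SE 0.055, adjusted p = 1.32e-07). Over 18 alternatives to the test the difference lay between 0.73 and 0.80, with adjusted p between 9.98e-26 and 0.59 and a call in 5 of them.

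SPRY4 (ENSG00000187678, chr5:142310427-142326455), which encodes a Sprouty protein, had 1208 (A), 852 (B) and 1311 (C) normalized reads with CANA, against 1482, 1525 and 1467 in control cells. All CANA libraries were below all control libraries, and replicate B was the lowest by far. The means were 1124 ± 241 with CANA and 1491 ± 30.3 in control cells (SD, n = 3 each). The log2 difference was -0.43 over all libraries (SE 0.16, adjusted p = 0.25) and -0.24 without CANA replicate B (SE 0.057, adjusted p = 0.0064, limma). SPRY4 thus fell by less once replicate B was left out, and passed the test only in the 3 of 18 alternatives without that library, with adjusted p between 0.0064 and 0.59.

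DUSP6 (ENSG00000139318, chr12:89347235-89352501) had 2015, 2165 and 2039 normalized reads with CANA, against 1987, 1937 and 1989 in control cells. The groups did not overlap, but the log2 difference was 0.072 (95% interval -0.11 to 0.25) with all libraries and 0.040 (-0.066 to 0.15) without CANA replicate B. DUSP4 had 16437, 15693 and 16508 normalized reads with CANA, against 16408, 16026 and 16335 in control cells. The groups overlapped, and without CANA replicate B the interval of the DUSP4 difference ran from -0.072 to 0.11.

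In the remaining genes replicate B lay beyond the other CANA libraries. DUSP1, an immediate-early phosphatase of p38, JNK and ERK, had 645, 745 and 645 normalized reads with CANA, against 653, 593 and 589 in control cells. DUSP10, which acts mainly on p38 and JNK rather than ERK, had 182, 243 and 184 with CANA, against 169, 166 and 185 in control cells. SPRED2 had 1369, 926 and 1297 normalized reads with CANA, against 1435, 1500.1 and 1327 in control cells. In each of these genes the groups overlapped, with replicate B highest for the phosphatases and lowest for SPRED2. SPRY1 and SPRY2 were likewise highest in replicate B, at 230.4 and 1056 normalized reads, and SPRED1 lowest, at 2809. Without CANA replicate B the log2 differences of the 8 genes other than DUSP5 and SPRY4 ran between -0.091 for SPRED2 and 0.079 for DUSP10.

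**Figure D2:**
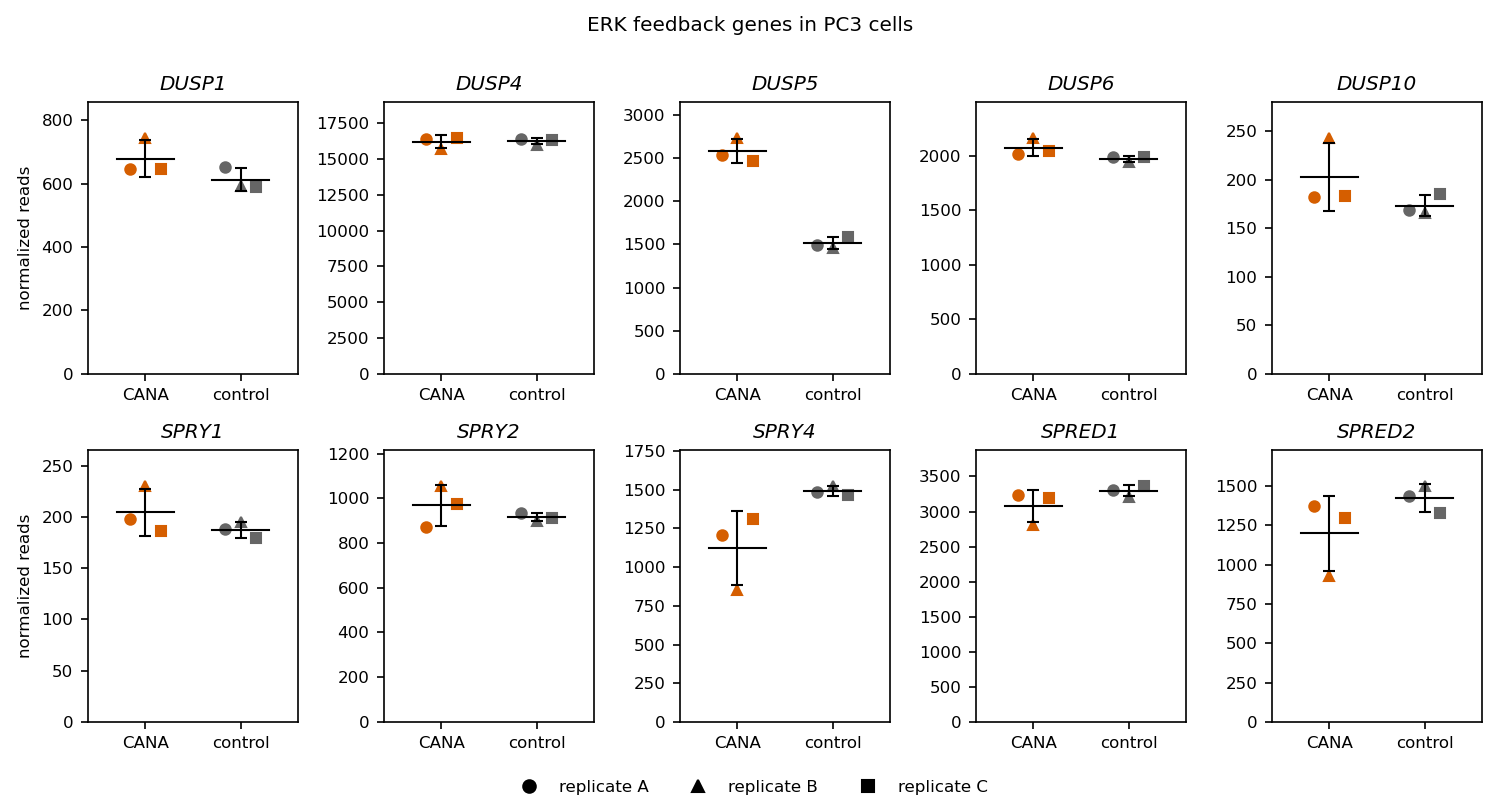
Normalized reads of the 10 genes in each PC3 library, CANA left and control right, with marker shapes for replicates, lines for means and bars for SD (n = 3), each axis starting at 0. DUSP5 is higher in all CANA libraries (2474 to 2739.8, against 1460.3 to 1591), and CANA replicate B (triangle) is the highest or the lowest CANA value of each gene.

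Within the set replicate B lay above the control mean for transcripts of 2013 to 3627 bases and below it for those of 4519 to 7270 bases. Its log2 differences were 0.28 for DUSP1, 0.49 for DUSP10, 0.30 for SPRY1, 0.21 for SPRY2 and 0.14 for DUSP6, all shorter transcripts. They were -0.81 for SPRY4, -0.62 for SPRED2, -0.23 for SPRED1 and -0.051 for DUSP4, the longer ones. Over all genes the median in replicate B was 0.84 for 941 genes with transcripts under 1000 bases, 0.12 for 2564 genes of 2000 to under 3000 bases and -0.34 for 5110 genes of 4000 bases or more. Replicates A and C showed a weaker trend of the same direction, with medians of 0.16 and 0.17 under 1000 bases and -0.029 and -0.032 at 4000 bases or more. DUSP5, with 2477 bases, measured 0.75 in CANA replicate A, 0.85 in B and 0.71 in C, where genes of 2000 to under 3000 bases had medians of -0.013, 0.12 and -0.019. With a curve of length taken away in each library, DUSP5 rose by 0.74 (SE 0.061, adjusted p = 0.0055, limma; 0.13 with a replicate block as well), and SPRY4 measured -0.34 (adjusted p = 0.11).

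**Figure D3:**
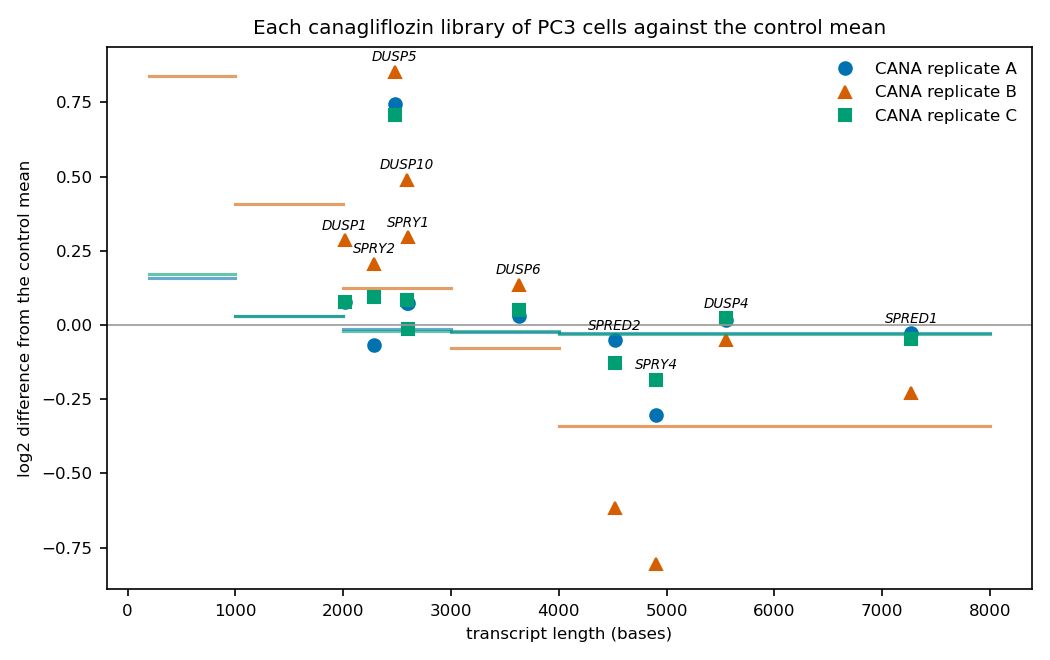
Log2 difference of each CANA library of PC3 cells from the control mean against transcript length in bases, for the 10 genes (points) and as the median of all genes in 5 length classes (horizontal lines, same colours; the outermost classes, under 1000 and from 4000 bases, are open-ended and drawn to 200 and 8000 bases). Replicate B departs from replicates A and C in most genes, while for DUSP5 the 3 libraries read 0.75, 0.85 and 0.71.

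By count, limma called 0 of the 10 genes in PC3 cells over all libraries, as it did for 0% of all 13450 genes tested. At an unadjusted p under 0.05 there were 2, DUSP5 and SPRY4, against 18.5% of all genes, and 3 of the 10 had groups that did not overlap, against 35.4% of all genes. On recovered reads edgeR called 0 of the 10, as it did for 0% of all genes (2 with p under 0.05 before adjustment, against 18.7% of all genes). DESeq2 called DUSP5 (log2 difference 0.77, SE 0.094, adjusted p = 5.35e-13) and no other member, where it called 1.96% of all genes higher and 0.647% lower. Without CANA replicate B limma called 1 gene of 10 higher, against 10.4% of all genes, and 1 lower, against 9.52%. These shares are near those of all genes, and DUSP5 stood at rank 8 by p among 6493 genes with higher values in those 5 libraries. The median log2 difference of the 10 genes without replicate B was 0.025, and -0.0088 over all genes.

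Radiation moved most of the set in 22RV1 cells, and it moved the genes in opposite directions. Of all genes tested 57.8% were called with RT, 28.4% higher and 29.4% lower. SPRY2, which encodes a Sprouty protein induced by growth factors (ENSG00000136158, chr13:80335976-80341126), had rlog values of 10.18, 10.16 and 10.19 in RT replicates A, B and C, against 9.24, 9.27 and 9.24 in control cells. The groups lay far apart, with a log2 difference of 0.93 (SE 0.035, adjusted p = 1.43e-17, limma), rank 33 by p of 7180 genes with higher values. SPRY1 had 7.64, 7.62 and 7.71 in RT cells, against 7.19, 7.27 and 7.32 in control cells. It rose by 0.40 (SE 0.051, adjusted p = 3.01e-07), with no overlap. DUSP6 had 8.61, 8.71 and 8.74 in RT cells, against 8.43, 8.38 and 8.37 in control cells, and rose by 0.29 (SE 0.044, adjusted p = 3.43e-06).

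DUSP1, DUSP4 and SPRY4 fell. DUSP1 (ENSG00000120129, chr5:172768096-172771195) had rlog values of 8.87, 8.87 and 8.82 in RT cells, against 9.37, 9.53 and 9.44 in control cells. The groups did not overlap, and the log2 difference was -0.59 (SE 0.040, adjusted p = 2.32e-12). DUSP4 had 8.68, 8.60 and 8.71 in RT cells, against 9.31, 9.19 and 9.17 in control cells, a log2 difference of -0.56 (SE 0.047, adjusted p = 1.48e-10). SPRY4 had 7.76, 7.72 and 7.77 in RT cells, against 8.22, 8.32 and 8.18 in control cells, a log2 difference of -0.49 (SE 0.045, adjusted p = 7.71e-10). The 95% intervals of these 3 differences overlapped, and without control replicate B DUSP4 measured -0.58 and DUSP1 -0.55, so the genes are not ordered by the size of the fall. So among the Sprouty genes SPRY1 and SPRY2 rose while SPRY4 fell, and among the ERK phosphatases DUSP6 rose while DUSP1 and DUSP4 fell.

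Smaller differences were seen for SPRED1 and DUSP10. SPRED1 was 0.16 higher in RT cells (SE 0.033, adjusted p = 2.36e-04), with rlog values of 10.22 to 10.28, against 10.05 to 10.13 in control cells. DUSP10 measured 8.79, 8.67 and 8.79 in RT cells, against 8.81, 8.92 and 8.90 in control cells. It was lower by the test (log2 difference -0.13, SE 0.044, adjusted p = 0.017), but not without RT replicate B (-0.085, adjusted p = 0.14), without control replicate B (-0.11, adjusted p = 0.069) or without control replicate C (-0.11, adjusted p = 0.057). DUSP5 had 6.02 to 6.15 in RT cells, against 6.07 to 6.12 in control cells, and SPRED2 had 10.47 to 10.51, against 10.41 to 10.47. The interval of the difference was -0.10 to 0.087 for DUSP5 and -0.0070 to 0.12 for SPRED2.

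In all, 4 of the 10 genes were higher with RT, against 28.4% of the 14563 genes tested, and 4 lower, against 29.4%. The share called, 8 of 10, stood beside 57.8% of all genes. The median absolute log2 difference of the 10 genes was 0.34, and 0.11 over all genes tested.

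**Figure D4:**
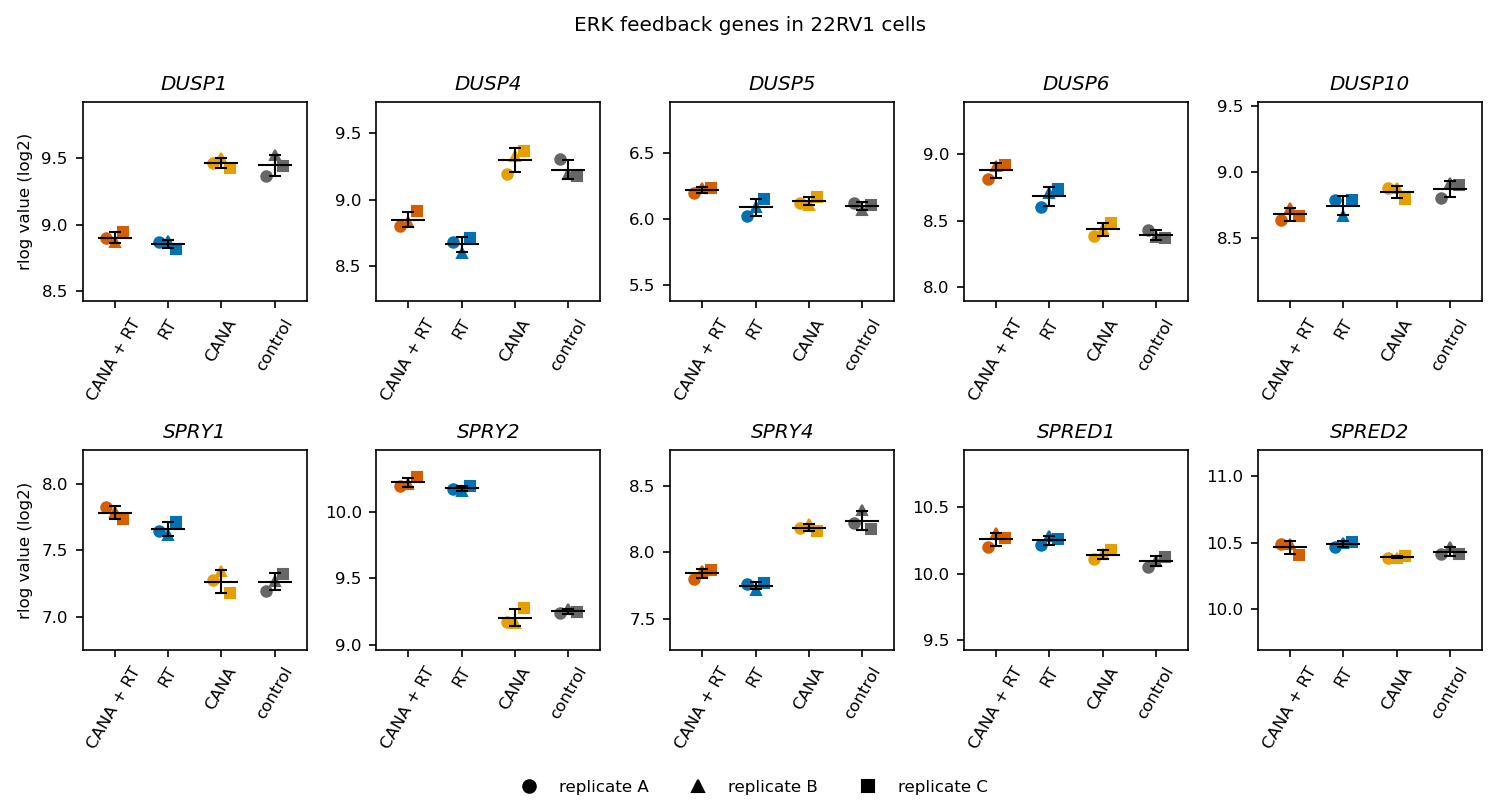
Rlog values (log2) of the 10 genes in each 22RV1 library, in the order CANA + RT, RT, CANA and control, with marker shapes for replicates, lines for means and bars for SD (n = 3), every panel spanning the same range of 1.5 log2 units. SPRY2 separates irradiated from unirradiated cells upwards (RT 10.16 to 10.19, control 9.24 to 9.27) and DUSP1 downwards (RT 8.82 to 8.87, control 9.37 to 9.53).

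Canagliflozin added to radiation was followed by higher DUSP6 and DUSP4. DUSP6 had rlog values of 8.81, 8.91 and 8.92 in CANA + RT replicates A, B and C, against 8.61, 8.71 and 8.74 in RT cells. All 3 CANA + RT libraries were above the RT libraries, and the log2 difference was 0.20 (SE 0.044, 95% interval 0.11 to 0.29, adjusted p = 0.016, limma). DUSP4 had 8.80, 8.83 and 8.91 in CANA + RT cells, against 8.68, 8.60 and 8.71 in RT cells, again with no overlap. Its log2 difference was 0.19 (SE 0.047, 95% interval 0.088 to 0.28, adjusted p = 0.033). DUSP6 was thus higher with RT and higher again with CANA + RT, whereas DUSP4 was lower with RT and, in CANA + RT cells, lay between RT and control cells, which measured 9.17 to 9.31.

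Both calls depended on single libraries. The adjusted p of DUSP4 was 0.064 without CANA + RT replicate A, 0.066 without CANA + RT replicate B, 0.20 without CANA + RT replicate C, 0.085 without RT replicate A and 0.19 without RT replicate B. That of DUSP6 was 0.066 without CANA + RT replicate B, 0.11 without CANA + RT replicate C, 0.11 without RT replicate A and 0.058 without RT replicate B. With no filter on low values the adjusted p was 0.11 for DUSP4 and 0.056 for DUSP6. The log2 differences stayed between 0.15 and 0.21 for DUSP4 and between 0.16 and 0.23 for DUSP6 over the 11 alternatives to the test.

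The other genes of the set did not pass. DUSP5 had 6.19, 6.23 and 6.23 in CANA + RT cells, against 6.02, 6.09 and 6.15 in RT cells, with no overlap (log2 difference 0.13, SE 0.047, adjusted p = 0.13). SPRY1 had 7.83, 7.79 and 7.73 in CANA + RT cells, against 7.64, 7.62 and 7.71 in RT cells, also apart (0.12, SE 0.051, adjusted p = 0.20). SPRY4 had 7.80, 7.86 and 7.87, against 7.76, 7.72 and 7.77 in RT cells (0.094, SE 0.045, adjusted p = 0.29). The groups of all these genes were separate by small margins, the closest being SPRY1, with a lowest CANA + RT value of 7.73 and a highest RT value of 7.71. DUSP1, SPRY2, SPRED1, SPRED2 and DUSP10 overlapped between the groups, with log2 differences between -0.067 for DUSP10 and 0.050 for DUSP1.

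With CANA + RT 2 of the 10 genes were called higher, against 1.40% of the 14563 genes tested, and 0 lower, against 1.17%. An unadjusted p under 0.05 in limma was reached by 5 of the 10, all higher. Of the 14563 genes 1255 reached it with a higher value, and 17.2% in either direction. Groups that did not overlap were found for 5 of the 10, all higher, while 12.2% of all genes were apart and higher. The median log2 difference of the 10 genes was 0.072, and -0.0023 over all genes. With 10 genes each of these shares moves by 10 percentage points for a single gene.

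Without radiation, the differences between CANA and control 22RV1 cells were small in all 10 genes. DUSP5, the gene with the largest difference in PC3 cells, had 6.12, 6.11 and 6.17 with CANA, against 6.12, 6.07 and 6.10 in control cells. The groups overlapped, and the interval of the difference was -0.060 to 0.13. DUSP6 had 8.39 to 8.48 with CANA, against 8.37 to 8.43 in control cells, and DUSP4 had 9.19 to 9.37, against 9.17 to 9.31. SPRED2, the only gene of the set whose groups were apart (3.56% of all genes were apart and lower), had 10.39 to 10.40 with CANA, against 10.41 to 10.47 in control cells, with a log2 difference of -0.042 (SE 0.031). All 10 log2 differences lay between -0.053 for SPRY4 and 0.074 for DUSP4, and limma called 0 of the 10 genes (0 at an unadjusted p under 0.05), as it called 0% of all 14563 genes (421, or 2.89%, at an unadjusted p under 0.05). No gene's 95% interval reached beyond -0.15 or 0.17. Since rlog values are drawn towards the mean and DUSP5 had the lowest level of the 10 genes in 22RV1 cells, its interval cannot be set against the PC3 difference, and a difference between the lines was not tested.

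Whether the CANA difference itself differed between irradiated and unirradiated 22RV1 cells was tested as an interaction. It was 0.15 for DUSP6 (SE 0.063, adjusted p = 0.39 in limma) and 0.15 for SPRY4 (SE 0.064, adjusted p = 0.43), the 2 genes of 10 with an unadjusted p under 0.05, beside 10.5% of all genes. For DUSP4 it was 0.11 (95% interval -0.026 to 0.25). The interaction was positive in 8 of the 10 genes, beside 7175 positive and 7387 negative over all genes. None of the 10 genes passed the adjusted threshold, as against 0.103% of all genes, so the higher DUSP4 and DUSP6 in CANA + RT cells were not shown to be larger than with CANA alone.

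**Figure D5:**
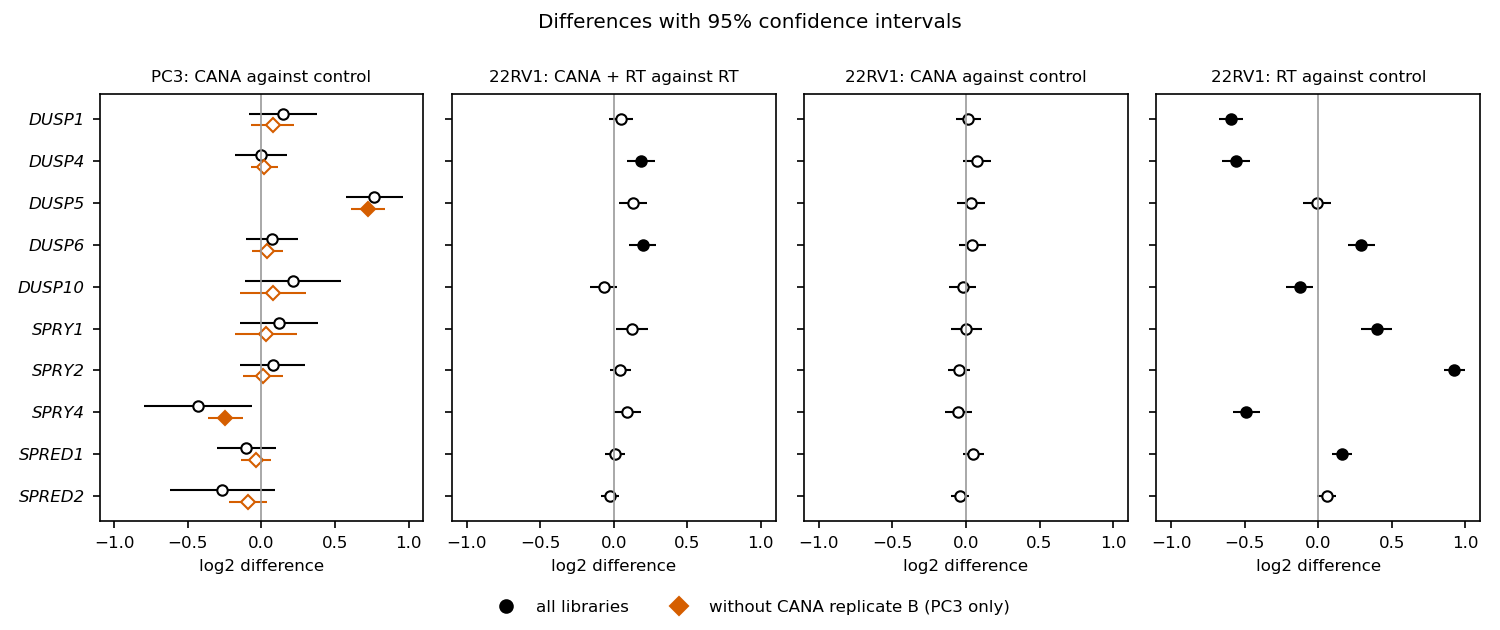
Log2 differences with 95% intervals for the 10 genes in 4 comparisons, filled markers showing an adjusted p under 0.05 in limma; in PC3 cells circles use all libraries and diamonds leave out CANA replicate B. DUSP5 and SPRY4 are filled in PC3 cells only as diamonds (0.73 and -0.24), and with CANA + RT against RT the filled genes are DUSP4 (0.19) and DUSP6 (0.20).

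Genes around the set in the same pathway are set beside the calls over all genes, which in PC3 cells were 0% over all libraries and 10.4% higher and 9.52% lower without CANA replicate B, and with CANA + RT 1.40% higher and 1.17% lower. Among 9 tested of 11 other DUSP genes, 0 passed in PC3 cells and 1 without CANA replicate B, where DUSP7, another cytoplasmic ERK phosphatase, fell by 0.18 (SE 0.052, adjusted p = 0.021). DUSP2 measured 20.5 ± 2.43 normalized reads with CANA and 11.8 ± 2.94 in control PC3 cells (SD, n = 3 each; adjusted p = 0.25). With CANA + RT 0 of the 9 passed, the smallest p belonging to DUSP16 (log2 difference -0.051, adjusted p = 0.46). The median log2 difference of these genes was -0.0071 in PC3 cells without replicate B, beside -0.0088 over all genes, and 0.012 with CANA + RT, beside -0.0023.

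Of 16 tested among 17 further regulators of receptor and RAS signalling, not all of them inhibitors, 0 passed in PC3 cells. Without CANA replicate B 1 rose and 5 fell, against 10.4% and 9.52% of all genes. The gene that rose was ERRFI1, an inhibitor of the EGF receptor, which measured 12446 ± 729 normalized reads with CANA and 8909 ± 289.7 in control PC3 cells (log2 difference without replicate B 0.53, SE 0.046, adjusted p = 5.98e-07). SPRED3, the third SPRED gene, measured 285 ± 53.9 with CANA and 389.8 ± 17.2 in control cells, and fell by 0.30 without replicate B (adjusted p = 0.014). LZTR1, a RAS-degrading adaptor, measured 437 ± 34.7 and 522 ± 23.0, with an adjusted p of 0.069 without replicate B. With CANA + RT 0 of the 16 passed. IL17RD and CBL measured -0.13 and -0.092 (adjusted p = 0.089 and 0.092, limma) and KSR1 0.12 (adjusted p = 0.18). The medians of this list, -0.083 in PC3 cells without replicate B and -0.037 with CANA + RT, were below those of all genes.

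A further list of 24 genes held RAS genes, kinases of the cascade, growth factor receptors and kinases downstream of ERK. Of 21 tested, 0 passed in PC3 cells and 3 fell without CANA replicate B. Among the 3 were RPS6KA4 and RPS6KA1 (-0.26 and -0.18, with adjusted p = 0.0015 and 0.046, limma). With CANA + RT 1 of 22 passed, RPS6KA2, a kinase downstream of ERK, which measured 7.93 ± 0.039 rlog in CANA + RT cells and 7.67 ± 0.089 in RT cells (log2 difference 0.26, adjusted p = 0.014). NRAS measured -0.071 (adjusted p = 0.24). The medians over these genes were -0.073 in PC3 cells without replicate B and -0.031 with CANA + RT.

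ERK target genes outside the set did not move one way in PC3 cells. Of 26 tested among 30, 0 passed over all libraries, and 2 rose and 5 fell without CANA replicate B, with a median log2 difference of -0.034, beside -0.0088 over all genes. EGR2, an early growth response factor, measured 46.4 ± 6.19 normalized reads with CANA and 81.3 ± 16.6 in control cells and fell by 0.76 without replicate B (adjusted p = 0.0087). JUN fell by 0.16 (adjusted p = 0.025) and KLF6 rose by 0.20 (adjusted p = 0.010) in the same fit. In CANA + RT cells 3 of 28 targets rose and 0 fell, against 1.40% and 1.17% of all genes, with a median of 0.032. They were FOS, an AP-1 subunit (log2 difference 0.28, SE 0.064, adjusted p = 0.016), ZFP36, which speeds mRNA decay (0.22, SE 0.037, adjusted p = 0.0011), and ETV4, an ETS factor (0.20, SE 0.038, adjusted p = 0.0035). Radiation itself was followed by 14 higher and 5 lower of these 28 genes, against 28.4% and 29.4% of all genes.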

How the data were processed

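Per the study's methods, RNA was extracted from cells lysed in culture plates and sequenced as single-end reads of whole cultures, so that fewer cells expressing a gene and less RNA per cell cannot be told apart; per the labels a directional library kit was used. After trimming (Trimmomatic, Cutadapt) the authors mapped the reads to hg38 using HISAT2, took counts over exons on the reverse strand and ran DESeq2; versions are not given in the sources used here. The deposited PC3 signal values are read counts scaled by a DESeq2 size factor per library, and whole reads were recovered within 0.01 for 99.9989% of 91170 values. The deposited 22RV1 values are rlog values on a log2 scale. Control, RT and CANA + RT libraries stand in more than 1 of the 22RV1 tables, and 0 of 202332 values shared between pairs of tables differed, so all 12 libraries entered 1 fit. Columns of the authors' own fold changes and p-values were not used, nor were 51 columns of per-sample values with no sample name.

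Genes with a symbol and a mean of at least 10 (PC3, log2 of value + 1) or a mean rlog of at least 3 (22RV1) were tested 2-sided with limma 3.58.1 in R 4.3.3, with a trend of spread on level, Benjamini-Hochberg adjustment over all genes and a threshold of 0.05. edgeR 4.0.16 and DESeq2 1.42.0 on recovered reads, leaving out each library, other filters, pseudocounts and centring, a replicate block and a length curve were alternatives. Replicate letters were not taken as pairs, since same-letter libraries did not all correlate above 0.1. Scripts were tested on simulated data. The 10 genes and the lists were chosen with earlier results of these data known. Besides the 10 genes, the text names, per pathway list, the 3 genes with the smallest p in PC3 CANA against control and in CANA + RT against RT, and the 3 genes most like DUSP5 and DUSP6 in 22RV1 cells. Marker lists are given as ranges and counts, and a few genes the rule names are not reported here. Giving PC3 results without CANA replicate B beside all others, and edgeR and DESeq2 without it, were chosen after seeing the data. Levels per kilobase use the transcript length of GENCODE release 44 (GRCh38).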

Additional observations from a re-analysis of the deposited data

How the results depend on the processing

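Of the values for single genes, 634 of 678 alternative values kept their direction and their side of the threshold. In PC3 cells the counts over all genes were 0 higher and 0 lower with limma, 263 and 87 with DESeq2, 36 and 5 with the length curve taken away, 0 to 1403 and 0 to 1280 when single libraries were left out, and, chosen after seeing the data, 1411 and 1112 with edgeR and 1099 and 864 with DESeq2, both without CANA replicate B. Of the 10 genes 1 was then called higher with DESeq2, with the length curve and, together with 1 lower, in all fits without CANA replicate B. DUSP4, near 0, changed sign: 5.07e-04 with edgeR, 0.024 and 0.025 with edgeR and DESeq2 without CANA replicate B, 0.11 with the length curve, with or without the replicate block, and -0.017 to 0.019 when single libraries were left out. SPRED1 measured 0.066 with the length curve, with or without the block. In CANA + RT against RT the counts over all genes, 204 higher and 170 lower, became 51 and 54 with no filter, 668 and 520 with only the 2 groups fitted, and 42 to 139 and 53 to 97 when single libraries were left out; of the 10 genes 0 were then higher with no filter and 0 to 2 with single libraries left out. The interaction gave 8 higher and 7 lower, 0 and 0 with no filter, 11 lower with a mean rlog of at least 6, and 0 to 70 and 0 to 46 when single libraries were left out. The causes were not tested.

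Uncalled log2 differences that changed sign when single libraries were left out ranged as follows. With CANA alone they were -0.022 to 0.056 for DUSP1, -0.057 to 0.0040 for DUSP10 and -0.037 to 0.047 for SPRY1 in 22RV1 cells. With CANA + RT against RT they were -0.016 to 0.034 for SPRED1 and -0.038 to 0.0034 for SPRED2, and with RT against control -0.039 to 0.022 for DUSP5. In the interaction they were -0.0062 to 0.072 for DUSP1 and -0.0010 to 0.045 for SPRED2.

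With the replicate letter as a block 0 genes were called in PC3 cells, 250 higher and 229 lower in CANA + RT against RT, and no call of the 10 genes changed; the correlation of same-letter libraries ran between 0.092 and 0.17 there, each library correlating best with its own letter, and between -0.14 and 0.43 with CANA alone. The depth of the 22RV1 libraries is unknown, and rlog shrinkage limits what low genes such as DUSP5 can show there.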

Other observations

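DUSP1 and DUSP10 take the phosphates off p38 and JNK, the MAP kinases of the p38 and JNK cascade. In PC3 cells 0 of 15 genes of this cascade passed over all libraries, against 0% of all genes, and 1 rose and 2 fell without CANA replicate B, against 10.4% and 9.52%. MAPKAPK3, a kinase downstream of p38, and MAPK14, which encodes p38 alpha, fell by 0.24 and 0.15 in that fit (adjusted p = 0.0057 and 0.049, limma), while MAPK11, which encodes p38 beta, measured 0.15 (adjusted p = 0.31). In CANA + RT cells 2 of 15 were higher than in RT cells, against 1.40% of all genes. These were MAPK11 (log2 difference 0.15, SE 0.033, adjusted p = 0.013) and MAPK12 (0.11, SE 0.030, adjusted p = 0.047), while MAPK9, which encodes JNK2, measured -0.079 (adjusted p = 0.19). Of the 15 p53 target genes 4 were higher with CANA + RT than with RT, against 1.40% of all genes. The smallest p belonged to GDF15, CDKN1A and BBC3, with log2 differences of 0.38, 0.25 and 0.16 (adjusted p = 1.48e-06, 2.03e-04 and 0.0070). In PC3 cells 0 of the 15 passed over all libraries, AEN measuring -0.32, GDF15 0.26 and XPC -0.19. Without CANA replicate B 1 rose and 1 fell, GDF15 (0.22, adjusted p = 0.023) and AEN (-0.29, adjusted p = 0.0076), and XPC measured -0.12 (adjusted p = 0.24). Of the 22RV1 marker genes 1 of 8 (TMPRSS2, 0.17) was higher with CANA + RT than with RT, against 1.40% of all genes, and of the PC3 marker genes tested there 1 of 6 (CAV1, -0.27) was lower, against 1.17%.

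The genes whose rlog values most resembled those of DUSP5 over the 12 libraries of 22RV1 cells were SH3YL1, ZMYND12 and MAFF (Pearson r = 0.90, 0.89 and 0.88), and those most like DUSP6 were EIF4A2, PDK4 and IGBP1 (all 0.98). Irradiated and unirradiated libraries form separate clusters, so the values within each are given too. In the 6 irradiated libraries r was 0.94, 0.93 and 0.99 for SH3YL1, ZMYND12 and MAFF, and in the 6 unirradiated libraries 0.90, 0.40 and 0.029. For EIF4A2, PDK4 and IGBP1 with DUSP6 r was 0.97, 0.98 and 0.93 in irradiated and 0.22, 0.94 and 0.23 in unirradiated libraries. These genes were picked from all genes for their likeness, and the figures describe these libraries only.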
